A study of Homo sapiens with 4 samples.

Results

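Respiratory complex I (NADH:ubiquinone oxidoreductase) is the entry point of the mitochondrial electron transport chain. It takes electrons from NADH, passes them along a chain of iron-sulfur centres to ubiquinone, and pumps protons across the inner membrane. A few of its subunits are encoded in mitochondrial DNA, and all others are made from nuclear mRNAs, translated in the cytosol and imported. This report covers 9 of the nuclear genes. They form 2 classes by function. NDUFV1, NDUFS3, NDUFS7 and NDUFS8 encode core subunits of the peripheral arm, where electrons are transferred, and NDUFA3, NDUFA11, NDUFA13, NDUFB7 and NDUFB10 encode accessory subunits of the membrane arm or of its junction with the peripheral arm. LARP4 is a cytoplasmic La-related protein that binds poly(A) and poly(A)-binding protein and is known for protecting mRNA 3′ ends.

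The study mapped where LARP4 touches RNA in HEK293, an established line from human embryonic kidney. Its assay was eCLIP, an enhanced form of crosslinking and immunoprecipitation in which ultraviolet light fixes a protein to the RNA it contacts. The LARP4 eCLIP group had 2 biological replicates, in which RNA was recovered with an antibody to LARP4. The reference was size-matched input, also with 2 replicates and no antibody. All cells received ultraviolet light (254 nm, 400 mJ/cm2), and no cells lacking LARP4 are among these samples. The data are lists of clusters, which are short stranded intervals with a log2 fold of eCLIP over input, 1 list for each eCLIP replicate and 1 series-wide list that the labels of both name. The inputs enter only as the denominator of the folds. The reads behind a cluster are unknown.

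The 9 genes were taken as windows of hg19, on 1 strand each, and every interval on that strand sharing at least 1 base with a window was counted. The core genes were NDUFV1 (chromosome 11, 67374300 to 67380100, plus strand), NDUFS3 (chromosome 11, 47600500 to 47606200, plus), NDUFS7 (chromosome 19, 1383500 to 1395700, plus) and NDUFS8 (chromosome 11, 67798000 to 67804200, plus). The accessory genes were NDUFA3 (chromosome 19, 54606100 to 54610400, plus), NDUFA11 (chromosome 19, 5891200 to 5904100, minus), NDUFA13 (chromosome 19, 19626500 to 19639100, plus), NDUFB7 (chromosome 19, 14676800 to 14682900, minus) and NDUFB10 (chromosome 16, 2009400 to 2012000, plus). Windows were 2601 to 12901 bases long. They held 107 of 171755 clusters in replicate 1, 106 of 191899 in replicate 2 and 68 of 7153 series-wide regions. Exons, introns and untranslated regions were not assigned, because no annotation or sequence of hg19 was used here, so positions are given within the window.

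Clusters in the complex I genes lay far above input in both replicates. A cluster was called enriched at a log2 fold of at least 3, which is 8-fold, with the authors' −log10 p of at least 3. Enriched clusters made up 67 of 107 in replicate 1, or 62.6% (Wilson 95% interval 53.2 to 71.2), against 5.01% of all clusters. In replicate 2 they made up 58 of 106, or 54.7% (45.2 to 63.9), against 5.50%. The median log2 fold of the complex I clusters was 3.26 in replicate 1 and 3.17 in replicate 2, against 1.28 and 1.30 over all clusters. Only 1 and 2 complex I clusters lay below input, against 11.6% and 11.2% of all clusters. Clusters of the mitochondrial chromosome, which carries the complex I genes that are not nuclear among its genes, had medians of −0.11 and 0.14. Those medians are over all of its clusters, and its complex I genes were not taken separately. These intervals treat clusters as independent and cover counting error only. With 2 replicates the smallest p of a 2-sided exact sign-flip test is 0.5, and the genes were chosen with results of these data known, so no test was made.

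Each of the 9 genes held at least 1 enriched cluster in each replicate and at least 1 series-wide region. Over the transcriptome, 7.90% of loci with a cluster in both replicates held a region, where a locus is a run of same-strand clusters with no gap over 5 kb. The genes differed widely in how much they held. NDUFA11 and NDUFA13 had 15 regions each and NDUFS7 had 14, followed by NDUFS8 and NDUFB10 with 8 each, NDUFV1 with 4 and NDUFA3 with 2. NDUFS3 and NDUFB7 had 1 each. Among all loci with a region, 2.11% held at least 15, 2.78% at least 14 and 8.83% at least 8. At least 4 were held by 27.8% and at least 2 by 56.6%, so the counts of NDUFV1, NDUFA3, NDUFS3 and NDUFB7 were common ones. Loci and gene windows do not have the same borders. The 15 regions of NDUFA11 and the 15 of NDUFA13 were each spread over 2 loci. The 2.11% is therefore not the rank of a locus of either gene. Many regions were touching pieces of 1 interval, and merging them left 34 intervals of the 68. The median of the authors' log2 fold was 3.74 over the 68 regions and 3.65 over all 7153, so the level of the regions was near that of the whole list. Both replicates had an enriched cluster with the longest overlap at 60 of the 68 regions (88.2%), against 72.5% of all regions.

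**Figure D1:**
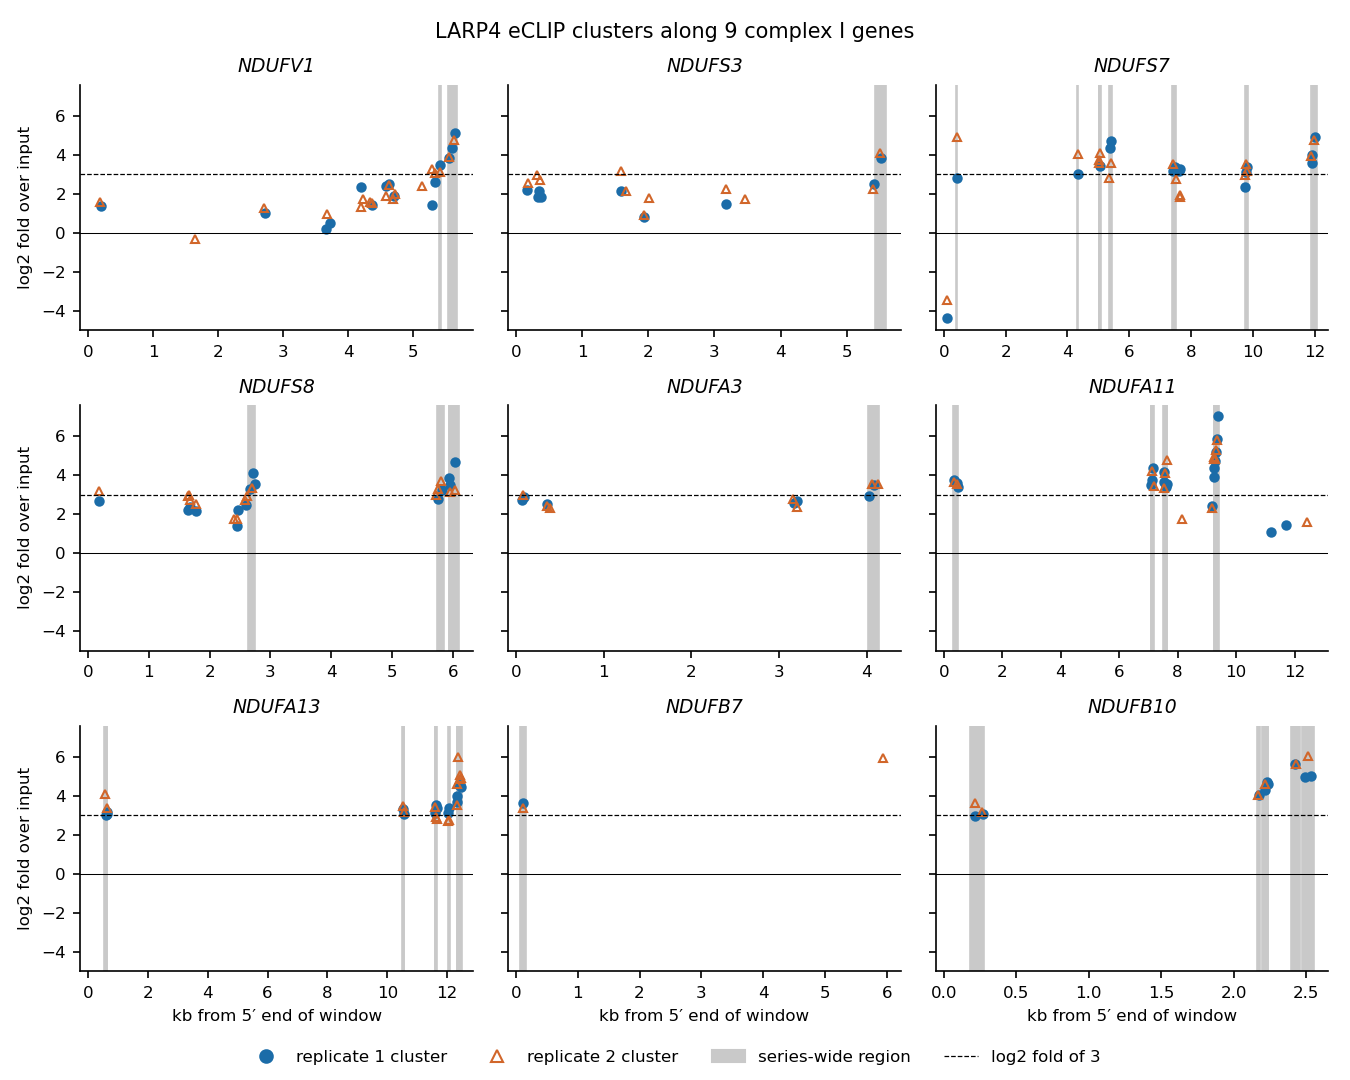
Each point is a cluster of replicate 1 (filled circles) or replicate 2 (open triangles), placed by kb from the 5′ end of its gene window, with the log2 fold over size-matched input on the vertical axis, and grey bars are series-wide regions. The highest points of NDUFV1, NDUFS3, NDUFA3, NDUFA13 and NDUFB10 stand at the right end in both replicates. NDUFA11 peaks before the 3′ end of its window, and NDUFS7 has 1 cluster far below input at the left.

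Among the core subunits, NDUFV1 binds NADH and carries the flavin that accepts its electrons. Its clusters were mostly moderate, with a median log2 fold of 2.35 in replicate 1 and 1.81 in replicate 2, and enriched ones numbered 4 of 15 and 5 of 18. All 4 of its regions lay in the last 10% of the window. The highest, at 67379928 to 67379970, had log2 folds of 5.11 in replicate 1 and 4.76 in replicate 2 (mean and SD 4.94 ± 0.25, n = 2), the order kept for all pairs of values that follow, or at least 27.2-fold in both replicates. For clusters of both replicates joined where they lay within 20 bases of each other, hereafter blocks, the width-weighted mean log2 fold can be followed along the gene. The last NDUFV1 block, 67379842 to 67379974, had 4.45 and 4.54. The block nearest the 5′ end, 67374452 to 67374523, had 1.38 and 1.56, and a block at 67377927 to 67378038 had 0.33 and 0.93. The next highest block, 67379591 to 67379736, adjoined the last one on its 5′ side and had 2.80 and 3.09. The last block therefore stood apart from the other blocks in each replicate by more than the replicates differed.

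NDUFS3, a core subunit of the module that reduces ubiquinone, had the fewest enriched clusters for its cluster number, 1 of 9 in replicate 1 and 2 of 11 in replicate 2. Its only region, at 47605936 to 47606087, spanned 152 bases near the 3′ end and reached 3.85 and 4.06 (3.96 ± 0.15 log2 units, SD, n = 2). The second enriched cluster of replicate 2, at 47602077 to 47602093, had 3.18, while the overlapping cluster of replicate 1 had 2.11. NDUFS3 thus had 1 interval that passed in both replicates, with medians over all its clusters of 2.11 and 2.25.

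NDUFS7 holds the last iron-sulfur centre before ubiquinone. It was the core gene with the most enriched clusters, 14 of 17 in replicate 1 and 11 of 17 in replicate 2, and its regions were spread along the window. They lay in 7 of its 9 blocks, 3 regions in the last 10% and 1 in the first 10%. The highest region, at 1395442 to 1395563, reached 4.92 and 4.73 on the log2 scale (4.83 ± 0.13, SD, n = 2). The replicates differed most at 1383910 to 1383941, a cluster with identical borders in both lists and log2 folds of 2.81 and 4.89. That pair was the furthest apart among all overlapping complex I clusters, at 2.08 log2 units. In an internal block at 1388832 to 1388937 replicate 1 was the higher one, with 4.49 against 3.22 in replicate 2. The order of the internal NDUFS7 blocks was therefore not the same in both replicates.

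NDUFS8 carries iron-sulfur centres between NDUFS7 and the NADH-oxidising end. Enriched clusters numbered 7 of 15 in replicate 1 and 6 of 15 in replicate 2. Its 8 regions formed 2 groups, 3 near the middle of the window and 5 in the last 10%. Ranked by the lower of its replicate values, the top region was in the middle group, at 67800708 to 67800732, with log2 folds of 4.11 and 3.35 (3.73 ± 0.54, SD, n = 2). The last region, at 67803974 to 67804093, had a higher mean but a wider spread, with 4.68 and 3.26 (3.97 ± 1.01). The difference between the region at 67800708 to 67800732 and the last one was smaller than the spread between replicates. The 4 blocks on the 5′ side of the middle group, without regions, had mean log2 folds of 2.96, 2.58, 2.35 and 1.71 from 5′ to 3′.

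Among the accessory subunits, NDUFA11, a membrane protein at the periphery of complex I, held the highest single cluster of replicate 1 and the highest authors' value among the 68 regions. In replicate 2 its highest log2 fold, 5.83, was below those of NDUFB10 (6.06), NDUFA13 (6.02) and NDUFB7 (5.96). Enriched clusters numbered 16 of 19 in replicate 1 and 12 of 15 in replicate 2. A block of 166 bases at 5894700 to 5894865 held 6 touching or neighbouring regions and 11 clusters over both replicates, all enriched, with a mean log2 fold of 5.45 in replicate 1 and 5.38 in replicate 2 (5.41 ± 0.05, SD, n = 2). The gene is on the minus strand, so the lower coordinate is the 3′ side. Towards it the log2 folds of replicate 1 rose from region to region. Those of replicate 2 began at 4.94, 4.85 and 4.82, without a rise, and then reached 5.28 and 5.83. The region at 5894857 to 5894865, on the 5′ side of the block, had 4.42 ± 0.73, and the one at 5894732 to 5894776 had 5.84 ± 0.02. The region at the 3′ border, 5894700 to 5894731, had 7.05 in replicate 1 and 5.83 in replicate 2. The authors' value there was 6.35, which 0.280% of all series-wide regions reached or exceeded. Replicate 2 holds no separate cluster at this border, and its value is that of a cluster of 76 bases from 5894702 to 5894777 that also gives its value for the neighbouring region.

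The other NDUFA11 blocks with regions had lower and similar levels. Mean log2 folds were 3.68 and 3.60 in the block at the 5′ end (5903623 to 5903787), 3.91 and 4.08 at 5896916 to 5897008, and 3.56 and 4.07 at 5896463 to 5896587. A block at 5894899 to 5894958, next to the highest one on its 5′ side, had only 2.41 and 2.30. On the 3′ side of the highest block, the window held 2 clusters of replicate 1 and 1 of replicate 2, with log2 folds of 1.11, 1.43 and 1.59, none enriched and none overlapping between replicates. The strongest block of NDUFA11 thus ended within a few bases of the same position in both replicates, at 5894700 and 5894702.

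NDUFA13, also known as GRIM-19 for its part in cell death, had its clusters in 1 block near the 5′ end and 4 towards the 3′ end, with none in either replicate between 19627141 and 19636991. Enriched clusters numbered 15 of 15 in replicate 1 and 11 of 15 in replicate 2. Of its 15 regions 10 lay in the last 10% of the window. The last block, 19638816 to 19638998, had mean log2 folds of 4.36 in replicate 1 and 5.04 in replicate 2, and 4 of its 11 clusters were at the upper limit of 400 of the −log10 p. Its region at 19638895 to 19638929 had 4.56 and 5.09 (4.82 ± 0.38, SD, n = 2). The neighbouring region at 19638862 to 19638894 had a higher mean with less agreement, 4.54 and 6.02 (5.28 ± 1.04). The remaining 4 blocks had means between 2.99 and 3.47, and the 4 clusters of replicate 2 that missed the threshold had log2 folds of 2.69 to 2.94, just below it.

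NDUFB10, a subunit of the distal membrane arm that faces the intermembrane space, had the shortest window and the highest median among genes with more than 2 clusters. The medians were 4.59 in replicate 1 and 4.32 in replicate 2, and 8 of 9 and 6 of 6 clusters were enriched. All 3 of its blocks held regions, and the level differed between them. The last block, 2011797 to 2011953, had mean log2 folds of 5.23 and 5.89, the middle one, 2011559 to 2011637, had 4.28 and 4.42, and the first, 2009578 to 2009692, had 3.02 and 3.52. In both replicates the last block was the highest and the first the lowest. The region at 2011798 to 2011854 reached 5.63 and 5.65 on the log2 scale (5.64 ± 0.01, SD, n = 2), or at least 49.5-fold.

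NDUFA3, a small membrane-arm subunit, had few enriched clusters, 1 of 7 in replicate 1 and 3 of 7 in replicate 2. Its folds were close together, from 2.51 to 3.49 in replicate 1 and from 2.33 to 3.55 in replicate 2, so the threshold cuts through its range. Both regions lay in the last block, 54610117 to 54610245, which had mean log2 folds of 3.44 and 3.55. The region at 54610117 to 54610213 had 3.49 and 3.55 (3.52 ± 0.04, SD, n = 2). The 3 other blocks had means of 2.91, 2.45 and 2.59.

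NDUFB7, a cysteine-rich subunit on the intermembrane-space side, was sparsely covered. Replicate 1 had 1 cluster and replicate 2 had 2, covering 1.56% and 1.97% of the window, against 3.88% to 13.8% in the other 8 genes. Its only region lay at the 5′ end, 14682745 to 14682839, with log2 folds of 3.65 and 3.35 (3.50 ± 0.21, SD, n = 2). The second cluster of replicate 2, at 14676940 to 14676973 near the 3′ end, had a log2 fold of 5.96 with a −log10 p of 50.8. Replicate 1 had no overlapping cluster there, so this value has no replicate. It was the only enriched complex I cluster of either replicate without a partner in the other.

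**Figure D2:**
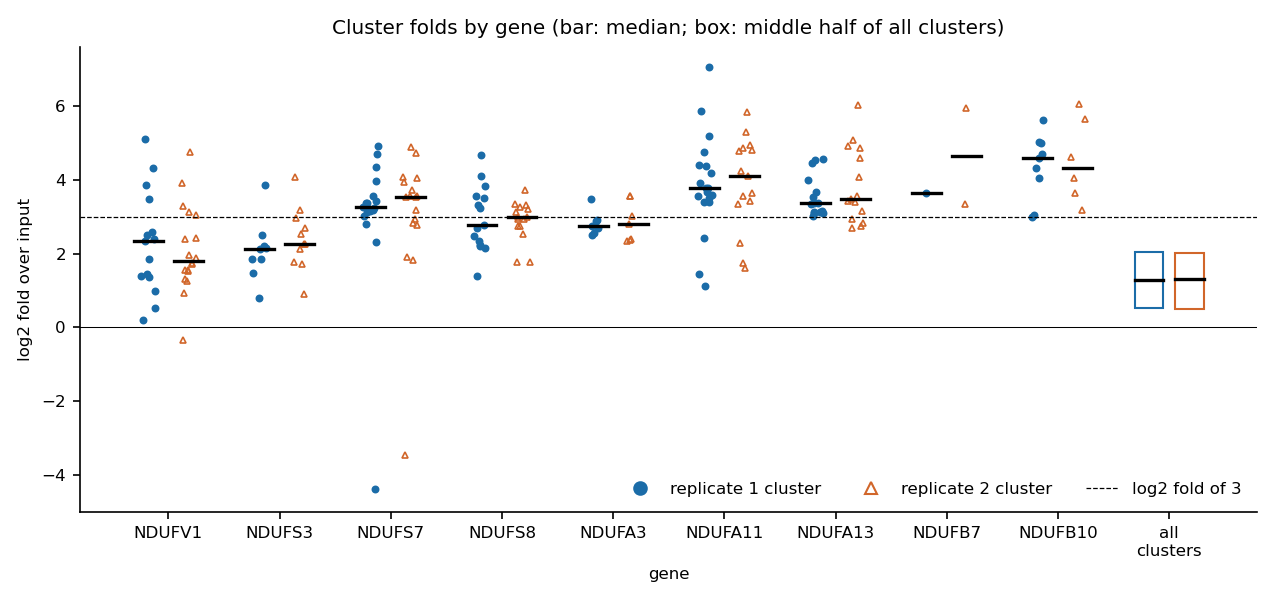
Each point is the log2 fold over size-matched input of 1 cluster, by gene, with replicate 1 as filled circles and replicate 2 as open triangles, black bars at the medians and, for all clusters of the lists, boxes at the quartiles. Medians of the 9 genes lie between 1.81 and 4.65, above the medians of 1.28 and 1.30 over all clusters.

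The order of the genes by the mean of both replicates' medians was NDUFB10 (4.45 ± 0.19), NDUFB7 (4.15 ± 0.71), NDUFA11 (3.94 ± 0.22), NDUFA13 (3.43 ± 0.09), NDUFS7 (3.40 ± 0.20), NDUFS8 (2.87 ± 0.15), NDUFA3 (2.78 ± 0.03), NDUFS3 (2.18 ± 0.09) and NDUFV1 (2.08 ± 0.38), all log2 folds with SD over n = 2. NDUFB7 rests on 3 clusters and its place is uncertain. Neighbours in this order differed by less than the larger of their SDs, except at 3 steps: NDUFA11 to NDUFA13, NDUFS7 to NDUFS8 and NDUFA3 to NDUFS3.

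With clusters pooled over genes, the accessory genes had a larger share of enriched clusters than the core genes, and function went together with chromosome. In accessory genes 80.4% of 51 clusters in replicate 1 and 75.6% of 45 in replicate 2 were enriched. In core genes 46.4% of 56 and 39.3% of 61 were. NDUFA11 and NDUFA13 supplied most of the accessory clusters, with 19 and 15 in replicate 1 and 15 each in replicate 2. NDUFA3, an accessory gene of chromosome 19, went the other way, with 14.3% and 42.9% enriched, below NDUFS7 in both replicates. Each other accessory gene had a larger share than every core gene in both replicates. Of the 5 accessory genes, 4 are on chromosome 19 and 1 on chromosome 16, while 3 of the 4 core genes are on chromosome 11. NDUFS7, the core gene on chromosome 19, had 82.4% and 64.7% of its clusters enriched, against 78.6% and 71.8% for the accessory genes of that chromosome. With 1 core gene there, function and chromosome cannot be told apart.

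Chromosomes differed in their own level. Clusters were enriched in 11.4% and 12.7% of cases on chromosome 19, in 6.88% and 7.90% on chromosome 11 and in 6.27% and 6.77% on chromosome 16. Complex I clusters were enriched in 79.7% and 69.6% of cases on chromosome 19 and in 30.8% and 29.5% on chromosome 11, so the excess over the chromosome was present on both. The −log10 p, which grows with the number of reads as well as with the fold, also differed. It was at least 3 in 89.7% and 87.7% of complex I clusters, against 14.2% and 13.8% of all clusters. Among clusters that passed this limit on p, the enriched share on chromosome 19 was 83.9% and 73.6% in the complex I genes, against 37.2% and 41.7% of all. On chromosome 16 it was 88.9% and 100% in NDUFB10, against 35.3% and 38.8% of all. On chromosome 11 it was 38.7% and 38.2% in NDUFV1, NDUFS3 and NDUFS8, against 40.5% and 47.9% of all. The limit on p is part of the call of enrichment and itself moves with the fold, and 79.5% and 77.3% of the clusters of these 3 genes passed it, against 17.0% and 16.5% of all clusters of chromosome 11, so these shares are descriptions of unlike selections. The part of read number in them was not tested.

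Enriched complex I clusters recurred between replicates. Of the 107 clusters of replicate 1, 105 overlapped a cluster of replicate 2 (98.1%), against 44.8% of all clusters. All 67 enriched ones did so, but so did 7515 of the 8613 enriched clusters of the whole list. Of the 67, 58 (86.6%, Wilson 95% interval 76.4 to 92.8) had an enriched partner, against 66.7% of all enriched clusters with a partner. In the other direction, 57 of the 58 enriched clusters of replicate 2 had a partner, against 8954 of 10551 in the whole list. The partner was enriched for 49 of the 57 (86.0%, 74.7 to 92.7), against 56.9% over all clusters. Over the 105 pairs the median absolute difference was 0.43 log2 units and the SD of a single value was 0.47, against 0.58 and 0.66 over all pairs. Over the same 105 pairs the correlation was 0.88 by Pearson's r and 0.81 by Spearman's rho, and without the NDUFS7 pair far below input it was 0.84 and 0.81. The pairs share libraries, genes and in places a cluster, so these are descriptions only.

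**Figure D3:**
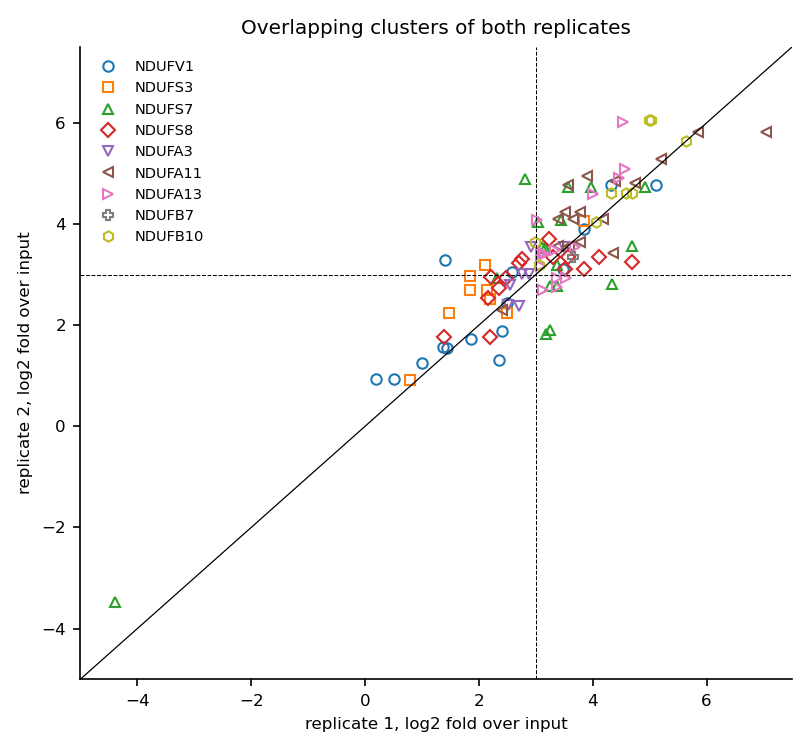
Each point is a replicate 1 cluster of a complex I gene with its overlapping replicate 2 cluster, both as log2 fold over size-matched input, with symbols by gene, dashed lines at a log2 fold of 3 and the line of equality. Of 105 pairs 86 lie within 1 log2 unit of that line, and the lone point at the lower left is the NDUFS7 cluster below input.

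Signal was higher at the 3′ ends than at the 5′ ends of the windows of most of the 9 genes. The ends of a window need not be those of the mRNA, because no annotation was used. The highest cluster lay in the last 10% of the window in 7 of 9 genes in each replicate. The exceptions were NDUFA11 in both replicates, NDUFB7 in replicate 1 and NDUFS7 in replicate 2. When positions were taken over the span of each gene's own clusters, as can be done for any locus of at least 5 clusters, the highest cluster lay in the last 10% for 7 of 8 genes in replicate 1 and 6 of 8 in replicate 2. The same was so for 30.2% and 29.6% of all loci. Those loci, also used below for the ends, were taken whether or not they held an enriched cluster. All of the complex I genes held one, so the comparison is not matched for enrichment. NDUFA11 and NDUFA13 fall into separate loci at the gap of 5 kb, so the loci stand in for genes only in part.

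The mean log2 fold of the last 10% of the window, weighted by width, exceeded that of the first 10% in 7 of 8 genes in replicate 1 and in 8 of 9 in replicate 2. NDUFA11 was the exception in both, and NDUFB7 had no 3′ cluster in replicate 1. In NDUFS7 the direction in replicate 2 rested on the cluster below input: without clusters below input its last 10% had 4.71 and its first 10% had 4.89, and the counts were 7 of 8 and 7 of 9. Over the span of clusters, the last 10% was higher in 7 of 8 genes in each replicate, against 56.9% of all loci in replicate 1 and 56.5% in replicate 2. Without clusters below input it was higher in 7 of 8 and 6 of 8, against 57.8% and 57.1%. The median difference between the ends over those 8 genes was 1.24 and 0.98 log2 units, against 0.24 and 0.22 over all loci. Without clusters below input it was 1.24 and 0.57, against 0.24 and 0.21. By gene, the last minus the first 10% was 2.29 ± 0.04 in NDUFV1, 2.24 ± 0.0016 in NDUFB10, 1.18 ± 0.33 in NDUFS3 and 0.92 ± 0.12 in NDUFA3 (SD, n = 2). In NDUFA13 (0.52 ± 0.48) and NDUFS8 (0.60 ± 0.68) it was about the size of the spread between replicates. The value of NDUFS7, 5.58 ± 0.83, includes the cluster below input at its 5′ end, and without it the replicates had 1.78 and −0.18. In NDUFA11 it was −2.13 ± 0.17.

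**Figure D4:**
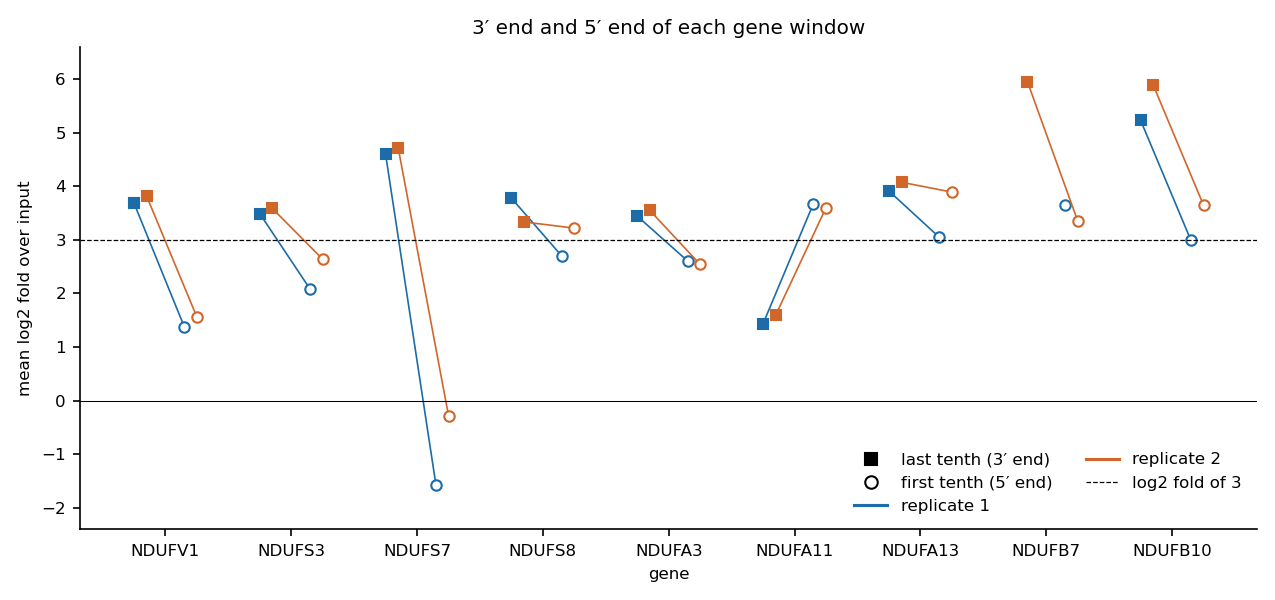
For each gene and replicate, squares give the width-weighted mean log2 fold over input of clusters in the last 10% of the window (3′ end) and circles that of the first 10% (5′ end), joined by a line within a replicate. The squares lie above the circles except in NDUFA11, NDUFB7 has no square in replicate 1, and the low circles of NDUFS7 include its cluster below input, without which its circle in replicate 2 would lie at 4.89, above the square at 4.71.

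Enriched clusters of all 9 genes had a mean position of 0.677 on a scale from 0 at the 5′ end of the window to 1 at the 3′ end, against 0.511 for clusters that were not enriched. The difference was 0.223 in replicate 1 and 0.114 in replicate 2. It ran the same way in 6 of 7 genes with both kinds of cluster in replicate 1 and in 5 of 7 in replicate 2. Among all loci of at least 5 clusters with both kinds it did so in 70.8% and 67.3%, so the counts of the complex I genes were near the general level. NDUFA11 was the exception in both replicates and NDUFA13 in replicate 2. In NDUFA11 the clusters that were not enriched included the weak ones on the 3′ side of its highest block. Regions were not confined to the 3′ end: 27 of the 68 lay in the last 10% of a window, 8 in the first 10% and 33 between.

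The opposite strand of the same windows, read in the same way, was nearly empty. It held 3 clusters in replicate 1, 2 in replicate 2 and no series-wide region. All 5 lay opposite NDUFS7, and the other 8 genes had none. One was enriched, in replicate 1, with a log2 fold of 3.81.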

How the data were processed

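LARP4 eCLIP and size-matched input libraries of HEK293 cells had 2 replicates each. Reads went through an eCLIP pipeline, per the labels' protocols. Per the submitters' processing notes, the tools included STAR 2.7.6a, cutadapt 1.14, SAMtools 1.6 and UMI-tools 1.0.0, with build hg19. How clusters were called, scaled for depth, paired with inputs and combined over replicates was not given in the sources used here. For each interval the authors deposited −log10 p values of enrichment, with an upper limit of 400, and log2 folds over input. Lacking headers, the columns were identified by their values. Every cluster below input has a −log10 p of 0, so p carries nothing on depletion. Read depth cannot be recovered from these ratios and is unknown.

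Starts were converted to 1-based positions. Gene windows were given with the gene names, and members and gene classes were chosen with earlier results of these data known. Replicate values at a region are those of the cluster with the longest overlap. For each gene the text names the region that ranks first by the lower of its replicate values. Where regions tied, the most 5′ one was taken. Other intervals were chosen after their values were seen, as were blocks and the 10% ends. Overlap, locus and window steps were tested on simulated intervals. Wilson intervals are at 95%. Alternatives covered thresholds, overlaps, weights, members and replicates. Other complex I genes were not analysed here, because no hg19 annotation was used. The software was Python 3.11.15 with pandas 2.3.3, numpy 2.4.6, matplotlib 3.10.9 and SciPy 1.17.1.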

Additional observations from a re-analysis of the deposited data

Results flagged for a closer look

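A cluster on the sense strand of NDUFS7, on chromosome 19 at 1383595 to 1383644 in replicate 1 and 1383593 to 1383644 in replicate 2, lay far below input, with log2 folds of −4.39 and −3.47. It stood out because it is a signal outside the enriched set that both replicates show. It was the only one of 105 overlapping complex I pairs at −3 or lower in both replicates, and such pairs made up 0.218% of all overlapping clusters. The authors' p is one-sided, so no test of depletion was made.

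On the strand opposite NDUFS7, replicate 1 held 1 enriched cluster at 1395674 to 1395758, across the 3′ end of the window, with a log2 fold of 3.81 and a −log10 p of 3.18. It stood out as the only enriched cluster on the opposite strand of the gene windows. No annotation was used, so a gene on that strand cannot be told apart from antisense reads. Replicate 2 had no enriched cluster there.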

How the results depend on the processing

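Of 98 alternatives, 79 kept their value within the spread or interval and 19 moved it. The highest regions of single genes made up 36 of the 98, and 34 of these kept their value. For a single gene, leaving out a replicate cannot move the mean past the SD of the same 2 replicates. Those settings were therefore fixed in advance and are no check. Of the other 62 alternatives, 45 kept their value and 17 moved it. Most of the 98 concern shares, counts and levels, which have no direction to turn. The differences in position and between the ends, which have a sign, kept it under all of their alternatives. The share of enriched complex I clusters rested on the fold threshold. With the log2 threshold at 2 it was 86.0% and 79.2% in replicates 1 and 2, against 11.03% and 11.3% of all clusters, and at 4 it was 22.4% and 23.6%, against 1.46% and 1.63%. Leaving out 1 gene at a time gave 56.5% to 68.5% and 50.5% to 60.2%. Of the 68 regions, 26 had an authors' log2 fold of at least 4, and merging gave 34. The median log2 fold was 3.38 and 3.31 over clusters past the limit on −log10 p, 3.33 and 3.35 weighted by width, and 3.49 in replicate 2 as a median of gene medians. The median of the highest regions, 4.82, was 4.56 to 4.73 with either replicate left out. With the log2 threshold at 4, 79.2% of enriched replicate 1 clusters recurred in replicate 2. In the other direction 58.3% of enriched replicate 2 clusters recurred in replicate 1. The same shares over all clusters are not given at this threshold, so these 2 values have no background. The median difference between the ends, 1.05, was 0.76 with clusters weighted equally, 1.31 from the highest cluster of each end, 0.86 without clusters below input, and 1.01 to 1.24 with either replicate left out. For NDUFS7 alone the difference in replicate 2 turned to −0.18 without clusters below input, a value outside the 98. These settings for the ends were chosen after seeing the data. No paired analysis was possible because the lists hold ratios to input and no separate input values. The number of reads behind each fold limits all values by an unknown amount.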
